A study of Mus musculus with 8 samples.

Results

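Total RNA of unstressed mouse embryonic fibroblasts lacking Mettl3 was compared with that of control fibroblasts, 2 libraries of each genotype and 4 of the 8 libraries in the series. The cells were cultured from E13.5 embryos, and poly(A) RNA was selected from the total RNA before sequencing. Knockout cells had been exposed to 500 nM 4-hydroxytamoxifen during 48 h, which activates a Cre recombinase that removes Mettl3, and the submitters examined loss of the protein and of its RNA mark after 7 days. The labels do not give the promoter that drives Cre, the strain, whether control cells received 4-hydroxytamoxifen, or whether replicates came from separate embryos. P-values therefore measure the spread between libraries of this series, including the granule libraries described below. No arsenite was given to the cells compared here. The other 4 libraries hold a granule-enriched fraction of the same genotypes after 500 µM arsenite for 30 min, and were used for the estimate of spread and for a side-by-side view. All 18952 of 39017 gene identifiers that passed an expression filter were tested. The account below dwells on genes for which both knockout values lay outside both control values, and on the programmes that hold them.

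METTL3 is the methyltransferase enzyme that places N6-methyladenosine (m6A) on mRNA, mostly in long exons and near stop codons. YTH-domain proteins read the mark, and cytoplasmic readers shorten the life of many methylated mRNAs. Cells also use m6A among the features that separate their own RNA from viral RNA, and interferon-stimulated genes encode the antiviral proteins that cells make when RNA or DNA sensors fire.

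The libraries held between 67257220 and 123508539 counts, and 3 counts in the smallest amounted to 0.0446 CPM, the count scaled to a library size of 1000000. Levels below are CPM after TMM scaling, in the order control replicate 1, control replicate 2, then knockout replicate 1 and knockout replicate 2. The knockout libraries stood apart from each other. Among 10213 genes averaging 5 CPM or more, 40.0% differed more than 2-fold between the knockout replicates, against 2.40% between the control replicates. In the granule fraction the replicates were closer, with 0.206% of these genes over 2-fold apart in controls and 0.392% in knockouts. The replicate difference followed the GC content of the transcripts in total RNA of both genotypes (Spearman across genes -0.71 for knockout and 0.74 for control). Mitochondrial transcripts took 7.6% of counts in knockout replicate 1 and 0.730% to 0.881% in the other total libraries. A list's median without knockout replicate 1, and with the GC trend of each library removed, is therefore given wherever it differs from the printed median by over 1.5 times. How far these library differences shaped a result was not tested. Fibroblast markers were abundant, with a summed level of 5806 and 4601 CPM in controls and 3808 and 3530 CPM in knockouts over 10 genes. Endothelial, skeletal muscle, neural, adipocyte and cartilage marker lists summed to at most 46.6 CPM each in any total library. In RNA of whole cultures, fewer cells of a type and less RNA per cell cannot be told apart.

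Among the genes called higher in knockout cells were 10 interferon-stimulated effectors, 3 chemokine and acute-phase genes and 3 metalloproteinase genes. Among those called lower were 4 contractile genes, 2 retinoid genes and 1 sterol synthesis gene. Canonical histones had the lowest list median, a log2 fold change of −2.13, without a called member. edgeR's quasi-likelihood test with Benjamini-Hochberg adjustment called 52 genes higher (0.274% of those tested) and 26 lower (0.137%) at an adjusted p under 0.05. Of these, 34 of the 52 and 17 of the 26 belonged to none of the 42 gene lists used. Both knockout values lay above both controls for 4624 genes (24.4%) and below both for 4682 (24.7%). Counts of list members outside the controls, given below, are to be read beside these shares. The nearest knockout and control values were at least 2-fold apart, upward for 529 genes (2.79%) and downward for 591 (3.12%), and all 78 called genes were among these. The median log2 fold change of all tested genes was 0.02. The called genes depend on the fit. No gene was called when only the 4 total libraries were fitted, where 1766 had an unadjusted p under 0.05, or when either control total library or any 1 granule library was left out. Without knockout replicate 1, 590 genes were called higher (2.95%) and 512 lower (2.56%), including all 78, with the lone knockout library assumed to vary like the other groups. With the GC trend removed, 473 were called higher (2.5%) and 236 lower (1.25%), including 76 of the 78. The 78 were picked from the same libraries and had nearest values at least 2-fold apart. Their being called again in these fits is therefore not independent evidence.

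**Figure D1:**
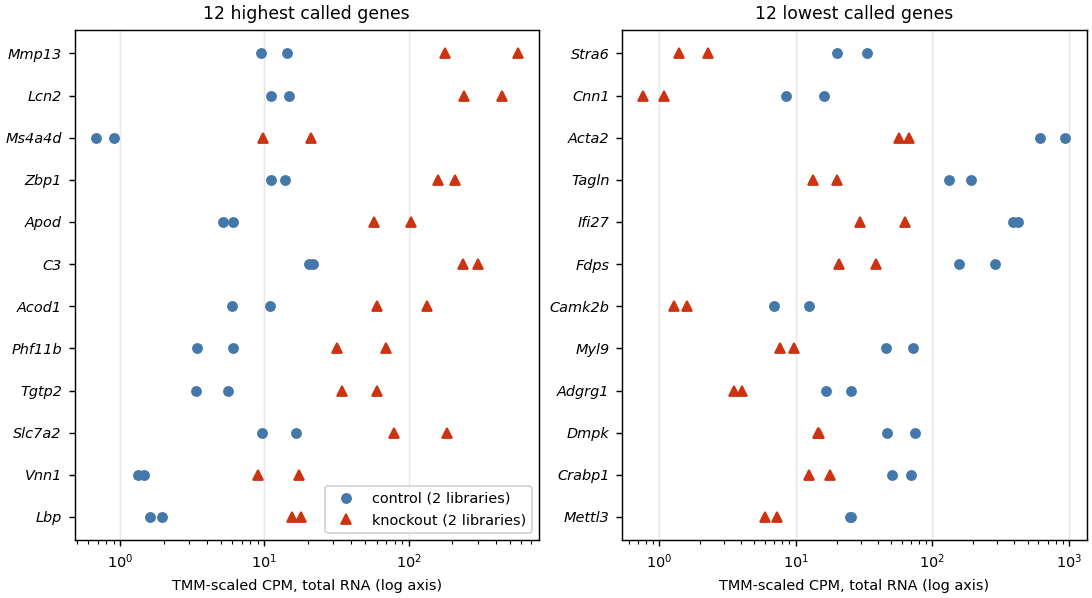
CPM in total RNA on a log axis for the 12 called protein-coding genes with the highest and the 12 with the lowest log2 fold change, with 1 point per library (control circles, knockout triangles). No gene's groups overlap, and Lcn2 shows the widest gap among the rises, from 14.9 CPM in the higher control to 241 CPM in the lower knockout.

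The deletion was visible at the targeted gene. Mettl3 (chromosome 14, 52294841 to 52305128, minus strand, GRCm38) stood at 25.4 and 24.9 CPM in the controls and at 6 and 7.35 CPM in the knockouts. Both knockout values lay below both controls, and the level fell by 1.91 in log2 units (SE 0.27, adjusted p 0.035). Part of the signal remained, and the counts are per gene, so they do not show which exons it came from. The m6A writer list held Mettl3, other genes of its complex and Mettl16, a separate methyltransferase that acts alone. Of its 8 tested genes Mettl3 alone was called. Of the other 7, 6 lay above both controls, Mettl16 among them, against 24.4% of all tested genes. The list's median log2 fold change was 0.80, and it was 0.52 without knockout replicate 1 and 0.34 with the GC trend removed. Cbll1, which encodes the complex's HAKAI subunit, was at 19.5 and 22.2 CPM in controls and at 175 and 38.2 CPM in knockouts. Zc3h13, a scaffold subunit, was at 41.4 and 45.9 CPM and then at 124 and 62.0 CPM. Wtap, the adaptor subunit, was at 26.9 and 45.7 CPM and then at 78.7 and 67.4 CPM. In each of these 3 genes, knockout replicate 1 was the higher knockout library, and none passed the test. Mettl14, the partner that METTL3 needs for activity, was at 25.1 and 34.7 CPM and at 36.3 and 24.4 CPM, with overlapping groups and a log2 fold change of 0.02 (SE 0.31) whose sign depended on the scaling.

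Among 12 readers and erasers, 5 lay above both controls and 1 below, against 24.4% and 24.7% of all tested genes, and none was called. The nuclear reader Ythdc1 was at 40.2 and 53.7 CPM and then at 271 and 86.8 CPM (log2 fold change 1.93, SE 0.49, adjusted p 0.13). The cytoplasmic readers Ythdf1 and Ythdf2 had smaller log2 fold changes, of 0.93 and 0.83. Ythdf3 of the same family had 1.59 (2.31 and 0.42 in the knockout libraries), with overlapping groups. Ythdf1 was at 89.1 and 102 CPM and then at 208 and 157 CPM. Ythdf2 was at 72.4 and 88.8 CPM and then at 154 and 132 CPM. The binding protein gene Igf2bp2 stood apart from controls in knockout replicate 1 only, at 584 CPM against 146 and 171 CPM, with 172 CPM in the other knockout. The list's median log2 fold change was 0.57, beside 0.02 for all tested genes, and it was 0.27 without knockout replicate 1 and 0.29 with the GC trend removed.

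The interferon-stimulated effectors lay above the controls in most cases. Of 47 tested, 39 lay above both controls and 34 of these by at least 2-fold, against 24.4% and 2.79% of all tested genes. The test called 10 higher and 1 lower. The list's median log2 fold change was 2.25, with 2.41 in knockout replicate 1 and 1.74 in knockout replicate 2 against the control mean. Without knockout replicate 1, 43 of 47 were called higher with a median of 1.70, and with the GC trend removed 35 were, with a median of 1.84.

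The promoters of 4 called members that carry the interferon-stimulated response element (ISRE), a site known from promoters of antiviral genes, are shown to give the letters behind the counts that follow. Each window is 100 bases from the 250 bases upstream of the RefSeq start (GRCm38.p6), 5′ to 3′ on the gene's strand, with matches to GAAANNGAAA on either strand in capitals.
Ifit3, chr19:34583345-34583444, plus strand: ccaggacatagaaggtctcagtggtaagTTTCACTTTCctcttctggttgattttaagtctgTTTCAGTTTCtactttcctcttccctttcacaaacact
Oas3, chr5:120777680-120777779, minus strand: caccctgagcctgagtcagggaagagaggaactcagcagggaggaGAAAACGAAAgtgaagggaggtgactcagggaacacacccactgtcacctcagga
Gbp3, chr3:142559944-142560043, plus strand: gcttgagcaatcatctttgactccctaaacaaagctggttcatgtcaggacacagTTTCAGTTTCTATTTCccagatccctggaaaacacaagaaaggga
Igtp, chr11:58199456-58199555, plus strand: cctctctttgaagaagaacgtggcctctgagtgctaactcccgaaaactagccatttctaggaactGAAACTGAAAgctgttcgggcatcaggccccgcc
The Ifit3 window holds 2 separate matches and the Gbp3 window 2 that overlap. Of the 35 effectors with a RefSeq promoter in the table used, 19 held a match in the 250 bases, or 54.3%, against 3.46% of 27025 genes. Of the sensor and signalling genes described further on, 1 of 17 did (5.88%), and of the class I presentation genes 3 of 17 (17.6%). Among genes called higher, 14 of 37 with a promoter held a match, and among genes called lower 0 of 20 did. A match is a description of the letters and not of binding.

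The Ifit genes encode proteins that bind viral RNA ends. Ifit3 stood at 161 and 285 CPM in controls and at 1206 and 1310 CPM in knockouts, a rise of 2.49 in log2 units (SE 0.32, adjusted p 0.032). Its neighbour in sequence, Ifit3b, is a near copy, so reads may have been split between them. Ifit3b was at 36.3 and 63.9 CPM and then at 213 and 282 CPM. The fold change of Ifit1 was larger and less certain. Ifit1 was at 124 and 172 CPM and then at 3411 and 424 CPM (log2 fold change 3.69, SE 0.83, adjusted p 0.11), so the knockout libraries differed from each other more than the lower one differed from the controls.

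The oligoadenylate synthetases make the second messenger that activates RNase L. Oas2 was at 36.5 and 47.0 CPM in controls and at 260 and 231 CPM in knockouts, a rise of 2.55 (SE 0.26, adjusted p 0.024). Oas3 was at 17.9 and 22 CPM and then at 101 and 90.6 CPM, a rise of 2.26 (SE 0.27, adjusted p 0.027). In both genes the knockout libraries were close to each other. The antiviral GTPase gene Mx1 was at 5.56 and 10.6 CPM and then at 51.2 and 46.0 CPM, a rise of 2.59 (SE 0.38, adjusted p 0.040).

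GTPases that act on intracellular pathogens rose as well. Gbp3, a guanylate-binding protein gene, was at 22 and 48.6 CPM in controls and at 323 and 237 CPM in knockouts, a rise of 2.99 (SE 0.41, adjusted p 0.035). Igtp, an immunity-related GTPase gene also known as Irgm3, was at 55.7 and 61.4 CPM and then at 220 and 196 CPM, a rise of 1.83 (SE 0.25, adjusted p 0.033). Tgtp2, a related GTPase outside the list, was at 3.34 and 5.54 CPM and then at 60.5 and 34.4 CPM, a rise of 3.42 (SE 0.43, adjusted p 0.030). Tgtp2 has a near-identical copy and its level is uncertain for that reason.

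Ifitm3 and Lgals3bp were abundant and varied little between replicates. Ifitm3, which blocks virus entry at membranes, stood at 455 and 463 CPM in controls and at 1564 and 1536 CPM in knockouts, a rise of 1.76 (SE 0.24, adjusted p 0.035). Lgals3bp, a secreted glycoprotein gene, was at 226 and 227 CPM and then at 766 and 681 CPM, a rise of 1.68 (SE 0.23, adjusted p 0.035). In both genes the gap between genotypes was far wider than that between replicates. Other abundant effectors, such as Ifit1 above, spread more widely. Parp14, which encodes an ADP-ribosyltransferase, was at 44.6 and 77.6 CPM and then at 521 and 283 CPM, a rise of 2.72 (SE 0.40, adjusted p 0.040).

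The largest fold changes in the list missed the threshold. Ifi204, a cytosolic DNA sensor gene of a family with close copies, was at 15.4 and 27.5 CPM in controls and at 597 and 110 CPM in knockouts (log2 fold change 4.04, SE 0.74, adjusted p 0.070). Phf11d was at 5.88 and 12.2 CPM and then at 236 and 59.2 CPM (4.03, SE 0.67, adjusted p 0.057). Ifi44 was at 14.8 and 35.0 CPM and then at 476 and 108 CPM (3.55, SE 0.71, adjusted p 0.081). In each of these 3 the groups did not overlap and knockout replicate 1 was more than 3-fold above knockout replicate 2. The paralogue Phf11b was called, at 3.41 and 6.03 CPM and then at 69.7 and 31.7 CPM, a rise of 3.42 (SE 0.47, adjusted p 0.035).

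Ifi27 went the other way. This gene for an interferon-inducible membrane protein was at 422 and 388 CPM in controls and at 29.7 and 63.0 CPM in knockouts, and fell by 3.13 in log2 units (SE 0.38, adjusted p 0.027). Both knockout values were more than 6-fold below both controls.

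Sensors and signalling genes of the same pathway were also above the controls. Of 21 tested, 16 lay above both controls and none below, against 24.4% and 24.7% of all tested genes. The test called 2 higher (Zbp1 and Stat2), and the median log2 fold change was 1.06. Per knockout library the median was 0.84 and 0.94. Zbp1, a sensor of Z-form nucleic acids that can trigger necroptosis, stood at 11.1 and 14.0 CPM in controls and at 209 and 159 CPM in knockouts, a rise of 3.88 (SE 0.30, adjusted p 0.013). Stat2, a transcription factor gene of interferon signalling, was at 148 and 181 CPM and then at 515 and 477 CPM, a rise of 1.59 (SE 0.24, adjusted p 0.041). In both genes the knockout libraries were close together.

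The double-stranded RNA sensors did not pass the test. Tlr3, the endosomal sensor, was at 5.55 and 11.4 CPM in controls and at 109 and 32.0 CPM in knockouts (log2 fold change 3.05, SE 0.60, adjusted p 0.078). Ifih1, which encodes the cytosolic sensor MDA5, was at 19.1 and 38.2 CPM and then at 234 and 74.1 CPM (2.42, SE 0.55, adjusted p 0.11). Irf7, the factor that amplifies interferon transcription, was at 95.3 and 99.0 CPM and then at 240 and 511 CPM (1.95, SE 0.36, adjusted p 0.072), with knockout replicate 2 the higher. Without knockout replicate 1, 10 of the 21 were called higher, and 10 were with the GC trend removed. The interferon gene Ifnb1 was low throughout, at 0.485 and 0.604 CPM in controls and at 0.647 and 1.63 CPM in knockouts (1.06, SE 0.53, adjusted p 0.25).

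Antigen presentation genes lay above the controls in most cases. Of 20 class I genes tested, 12 lay above both controls and none below, against 24.4% and 24.7% of all tested genes. No member was called, and the median log2 fold change was 0.69. The knockout libraries differed, with medians of 0.26 in replicate 1 and 1.06 in replicate 2. B2m, the shared light chain, was at 1127 and 1113 CPM in controls and at 28534 and 2205 CPM in knockouts (log2 fold change 3.78, SE 0.97, adjusted p 0.13). The value in knockout replicate 1 stood far above the other 3. Among heavy chains, H2-Q4 was at 52.7 and 63.0 CPM and then at 410 and 196 CPM (2.39, SE 0.38, adjusted p 0.053), and H2-K1 was at 434 and 444 CPM and then at 710 and 1783 CPM (1.51, SE 0.42, adjusted p 0.14). Reads of these heavy-chain genes can be shared among close copies. Erap1, the peptide-trimming protease gene, was at 11.8 and 17.4 CPM and then at 116 and 37.6 CPM (2.39, SE 0.51, adjusted p 0.096). Without knockout replicate 1, 17 of the 20 were called higher with a median of 1.06, and with the GC trend removed 11 were, with a median of 1.14.

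**Figure D2:**
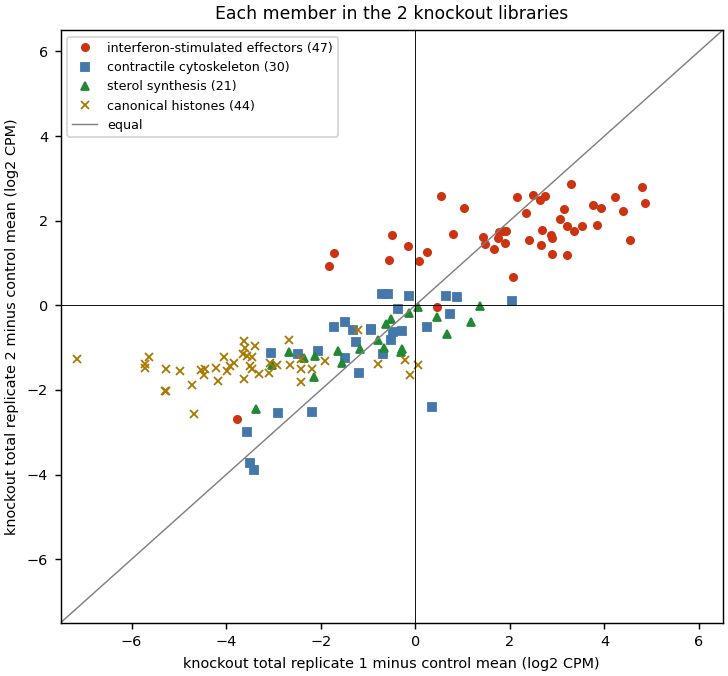
Log2 CPM of each tested member minus the mean of the controls, in knockout total replicate 1 (x axis) and replicate 2 (y axis), for 4 gene lists, with the line of equal values. Most interferon-stimulated effectors lie above 0 in both libraries and Ifi27 lies below 0 in both, while most canonical histones lie farther below 0 in replicate 1 than in replicate 2.

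Chemokine and acute-phase genes were mixed, with a few very large rises. Of 36 tested, 19 lay above both controls and 6 below, against 24.4% and 24.7% of all tested genes. The test called 3 higher (Lcn2, C3 and Ccl5). The median log2 fold change was 1.13, and it was 0.59 without knockout replicate 1 and 0.74 with the GC trend removed. Lcn2 (chromosome 2, 32384633 to 32388252, minus strand), the siderophore-binding lipocalin, stood at 11 and 14.9 CPM in controls and at 440 and 241 CPM in knockouts. It rose by 4.72 in log2 units (SE 0.39, adjusted p 0.014), and the lower knockout was 16.2-fold above the higher control. C3 (chromosome 17, 57203970 to 57228136, minus strand), the central complement component, was at 21.8 and 20.3 CPM and then at 239 and 301 CPM, a rise of 3.68 (SE 0.30, adjusted p 0.013). The chemokine gene Ccl5 was at 84.1 and 83.6 CPM and then at 267 and 452 CPM, a rise of 2.10 (SE 0.31, adjusted p 0.040).

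Outside the called genes, Saa3, an acute-phase apolipoprotein gene, was at 24.4 and 37.9 CPM in controls and at 138 and 391 CPM in knockouts (log2 fold change 3.09, SE 0.50, adjusted p 0.055). Cxcl9, a chemokine gene that interferon gamma induces, was at 3.19 and 4.70 CPM and then at 128 and 22.6 CPM (4.25, SE 0.75, adjusted p 0.064). The NF-κB subunit genes Nfkb2 and Relb lay below both controls, and other subunit genes are not described. Nfkb2 was at 311 and 246 CPM and then at 72.7 and 185 CPM, and Relb was at 110 and 82.3 CPM and then at 19.5 and 76.4 CPM. In both, knockout replicate 1 was the lower, and Relb in knockout replicate 2 was near the lower control. These were picked after their values were seen, and neither passed the test (adjusted p 0.17 and 0.28).

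Further genes of innate defence were called outside the lists. Lbp, which binds lipopolysaccharide, was at 1.94 and 1.62 CPM in controls and at 15.4 and 17.9 CPM in knockouts, a rise of 3.23 (SE 0.36, adjusted p 0.024). Acod1, the enzyme that makes itaconate, was at 5.94 and 10.9 CPM and then at 134 and 60.6 CPM, a rise of 3.53 (SE 0.51, adjusted p 0.040). The proteases that open the classical complement pathway rose too, and were named after their values were seen. C1ra was at 19.9 and 21.1 CPM and then at 109 and 97.9 CPM, and C1s1 was at 7.87 and 9.62 CPM and then at 67.8 and 49.0 CPM (adjusted p 0.027 and 0.032). Fibroblasts are known to make these complement components, but which cells made them here was not tested. Of 8 macrophage markers none was called. None lay above both controls and 3 lay below both, against 24.4% and 24.7% of all tested genes. Mpeg1, a macrophage-expressed gene outside that list and named after its values were seen, went the other way. It was at 5.31 and 9.47 CPM in controls and at 50.6 and 46.3 CPM in knockouts, a rise of 2.71 (SE 0.38, adjusted p 0.035). The marker list's summed level was 66.5 and 80.8 CPM in controls and 58.5 and 58.2 CPM in knockouts, and Ptprc, the pan-leukocyte marker CD45, was at 37.4 and 41.8 CPM and then at 27.8 and 24.4 CPM.

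Of the matrix proteases and their inhibitors, 3 genes rose and no other member was called. Of 28 tested, 7 lay above both controls and 2 below, shares near and under those of all tested genes, and the median log2 fold change was 0.02, or 0.07 without knockout replicate 1 and 0.15 with the GC trend removed. Mmp13, a collagenase, stood at 9.46 and 14.2 CPM in controls and at 569 and 179 CPM in knockouts, a rise of 4.98 (SE 0.61, adjusted p 0.027) and the highest among the named genes that were called. Mmp3, a stromelysin, was at 28.7 and 33.9 CPM and then at 186 and 376 CPM, a rise of 3.17 (SE 0.46, adjusted p 0.040). Mmp10, its close relative, was at 5.00 and 4.66 CPM and then at 25.6 and 23.4 CPM, a rise of 2.34 (SE 0.32, adjusted p 0.035). These genes share a cluster on chromosome 9 of GRCm38, with Mmp13 at 7272514 to 7283331, Mmp3 at 7445822 to 7455975 and Mmp10 at 7502352 to 7510240, all on the plus strand. Mmp12 at 7344381 to 7369499 and Mmp8 at 7558456 to 7568485, in the same cluster, had overlapping groups. Plat, the tissue plasminogen activator gene, was at 37.1 and 36.8 CPM and then at 81.8 and 93.5 CPM, without passing the test (adjusted p 0.10).

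Other leading rises belonged to secreted and metabolic genes. Apod, a lipocalin that carries lipids, was at 6.06 and 5.18 CPM in controls and at 103 and 57.2 CPM in knockouts, a rise of 3.83 (SE 0.47, adjusted p 0.027). Slc7a2, a cationic amino acid transporter gene, was at 9.58 and 16.4 CPM and then at 184 and 79.0 CPM, a rise of 3.34 (SE 0.51, adjusted p 0.046). Vnn1, which encodes the pantetheinase vanin, was at 1.34 and 1.47 CPM and then at 17.3 and 8.95 CPM, a rise of 3.23 (SE 0.41, adjusted p 0.032). Ms4a4d was at 0.677 and 0.906 CPM and then at 20.9 and 9.84 CPM, a rise of 4.27 (SE 0.47, adjusted p 0.024). In these 4 genes knockout replicate 1 was the higher knockout library.

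The contractile list held more called falls than any other list. Of 30 tested, 19 lay below both controls and 2 above, against 24.7% and 24.4% of all tested genes, and 4 were called lower. The median log2 fold change was −0.80, with −0.94 and −0.61 in the knockout libraries, and −0.52 with the GC trend removed. Leaving out knockout replicate 1 gave 12 called lower. Acta2, smooth muscle α-actin, stood at 946 and 612 CPM in controls and at 67.4 and 57.4 CPM in knockouts, and fell by 3.64 in log2 units (SE 0.35, adjusted p 0.024). Cnn1, calponin, was at 16.1 and 8.48 CPM and then at 1.09 and 0.769 CPM, and fell by 3.72 (SE 0.46, adjusted p 0.030). Tagln, the actin-binding protein SM22α, was at 193 and 133 CPM and then at 13.52 and 20.1 CPM, and fell by 3.28 (SE 0.39, adjusted p 0.027). Exons of another gene cover 67.9% of Tagln's, and without strand information their reads cannot be separated. Myl9, the myosin regulatory light chain gene, was at 72.5 and 45.9 CPM and then at 7.72 and 9.80 CPM, and fell by 2.76 (SE 0.38, adjusted p 0.035).

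The promoters of Myl9 and of Cnn2, a calponin expressed outside muscle, are shown because they hold the CArG box, the site of serum response factor. Windows are as above, with the CArG box in capitals.
Myl9, chr2:156775258-156775357, plus strand: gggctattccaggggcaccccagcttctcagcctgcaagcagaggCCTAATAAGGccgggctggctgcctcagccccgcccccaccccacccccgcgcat
Cnn2, chr10:79988499-79988598, plus strand: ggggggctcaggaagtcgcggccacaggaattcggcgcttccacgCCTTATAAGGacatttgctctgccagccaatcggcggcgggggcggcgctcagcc
Of 25 contractile genes with a promoter in the table, 8 held a CArG box in the 250 bases, or 32%, against 1.62% of 27025 genes. Among genes called lower, 1 of 20 with a promoter held the box, which was Myl9, and among genes called higher 1 of 37 did. Acta2 and Cnn1 held no match in this window. The box was searched in its strict form on both strands. Cnn2 was at 513 and 316 CPM in controls and at 71.8 and 182 CPM in knockouts, below both controls without passing the test (log2 fold change −1.71, SE 0.45, adjusted p 0.13). Vcl, the focal adhesion gene vinculin, which also holds the box, was at 112 and 93.2 CPM and then at 42.9 and 55.5 CPM (−1.06, SE 0.27, adjusted p 0.12). Myl6, Actg1, Acta1, Actc1 and Srf hold the box too, and none of them was called. Their levels are not given, so the genes shown do not link the box with a fall.

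Of 37 collagens, 19 lay below both controls, 4 above, and none was called. The median log2 fold change of −0.34 turned to 0.13 with the GC trend removed. It was −0.11 when knockout replicate 1 was left out as well, so the sign of the median depends on the fit. Col5a1 was at 284 and 272 CPM in controls and at 113 and 196 CPM in knockouts. Col5a3 was at 36.9 and 37.9 CPM and then at 9.01 and 25.1 CPM, and Col7a1 was at 29.3 and 31.2 CPM and then at 5.43 and 21.2 CPM, with knockout replicate 1 the lower in each. Col12a1 was at 52.2 and 74.1 CPM and then at 40.4 and 27.5 CPM.

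Sterol synthesis genes lay below the controls in most cases. Of 21 tested, 16 lay below both controls and none above, against 24.7% and 24.4% of all tested genes. The test called 1 lower, and the median log2 fold change was −0.83 (−0.66 and −1.02 in the knockout libraries). Fdps, which makes farnesyl pyrophosphate, was at 287 and 158 CPM in controls and at 20.6 and 38.7 CPM in knockouts, and fell by 2.91 (SE 0.42, adjusted p 0.040). Mvk, mevalonate kinase, was at 80.5 and 46.6 CPM and then at 7.51 and 23 CPM (−2.06, SE 0.52, adjusted p 0.13). Mvd was at 101 and 48.6 CPM and then at 11 and 32.5 CPM (−1.78, SE 0.54, adjusted p 0.14). Without knockout replicate 1, 10 of the 21 were called lower, and 9 were with the GC trend removed.

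Stra6, a retinoid gene, had the steepest fall among the named genes that were called. Of 16 retinoid genes tested, 9 lay below both controls and 3 above, against 24.7% and 24.4% of all tested genes. Stra6 and Crabp1 were called lower. The median log2 fold change was −0.45, and it was −0.25 without knockout replicate 1 and −0.35 with the GC trend removed. Stra6 (chromosome 9, 58063788 to 58153996, plus strand), the receptor that takes up retinol, was at 33.2 and 20.0 CPM in controls and at 1.41 and 2.28 CPM in knockouts, and fell by 3.85 (SE 0.40, adjusted p 0.024). Crabp1, which binds retinoic acid in the cytoplasm, was at 69.9 and 51.2 CPM and then at 12.5 and 17.8 CPM, and fell by 2 log2 units (SE 0.30, adjusted p 0.041). Aldh1a1, a retinaldehyde dehydrogenase gene, was at 40.6 and 38.2 CPM and then at 26.4 and 10.1 CPM, and Dhrs3, a retinaldehyde reductase gene, was at 20.9 and 11.3 CPM and then at 6.16 and 8.92 CPM. Neither passed the test (adjusted p 0.17 and 0.16).

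Genes of epithelial junctions and keratins were also among the called falls, named here after their values were seen. Cldn4, a tight junction claudin gene, was at 9.80 and 5.43 CPM in controls and at 0.827 and 0.987 CPM in knockouts, and fell by 3.07 (SE 0.37, adjusted p 0.027). Krt13 was at 6.10 and 3.64 CPM and then at 0.575 and 0.675 CPM, and fell by 2.96 (SE 0.37, adjusted p 0.027). The junction-linked genes Cgn and Cgnl1 fell by 1.74 and 1.70 (SE 0.26 and 0.24, adjusted p 0.041 and 0.035), and Cgnl1 was abundant, at 620 and 634 CPM and then at 180 and 207 CPM. Of 6 epithelial markers 5 lay below both controls and none was called. Their summed level was 453.2 and 358.6 CPM and then 183.6 and 153.0 CPM. Krt18 was at 330 and 200 CPM and then at 46.9 and 87.6 CPM (−1.98, SE 0.39, adjusted p 0.078).

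The remaining named falls were in genes of other kinds. Camk2b, a calcium-dependent kinase subunit gene, was at 12.6 and 6.98 CPM in controls and at 1.29 and 1.60 CPM in knockouts, and fell by 2.76 (SE 0.36, adjusted p 0.032). Adgrg1, an adhesion receptor gene, was at 25.4 and 16.7 CPM and then at 3.53 and 4.05 CPM, and fell by 2.47 (SE 0.31, adjusted p 0.027). Dmpk, a kinase gene known from myotonic dystrophy, was at 74.8 and 46.8 CPM and then at 14.6 and 14.8 CPM, and fell by 2.05 (SE 0.30, adjusted p 0.039). With the GC trend removed, Dmpk was no longer called (adjusted p 0.099).

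**Figure D3:**
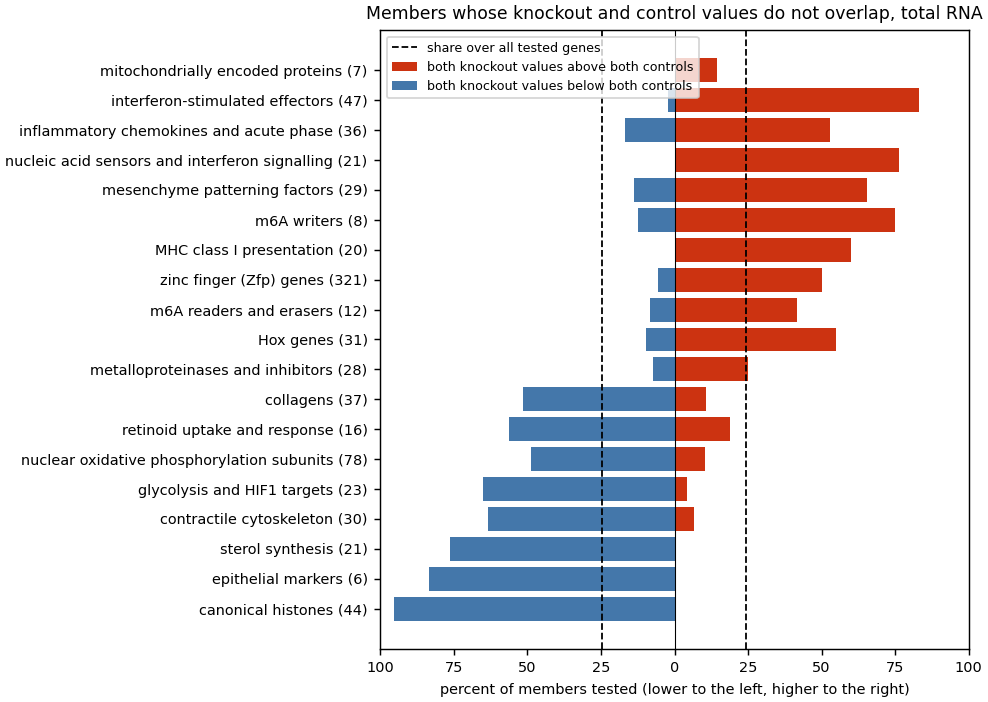
Share of tested members of each gene list whose knockout values lie both above (right, red) or both below (left, blue) the control values, with the shares over all tested genes dashed at 24.4% and 24.7%. The number tested is in brackets. Interferon lists extend furthest to the right among the lists of 20 or more genes and canonical histones furthest to the left.

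Several broad lists sat to one side of the controls with few or no called genes. Of 23 glycolysis and HIF1 target genes, 15 lay below both controls and 1 above, none was called, and the median log2 fold change was −0.74. Gapdh was at 2557 and 1722 CPM in controls and at 464 and 1138 CPM in knockouts, and Eno1 was at 2996 and 2081 CPM and then at 449 and 1503 CPM. Aldoa was at 1476 and 1008 CPM and then at 348 and 593 CPM, and Pfkm was at 100 and 67.9 CPM and then at 22.2 and 43.9 CPM. In all 4 genes knockout replicate 1 was the lower. Among 78 nuclear subunits of oxidative phosphorylation, 38 lay below both controls and 8 above. Their median was −0.51, with −0.99 in knockout replicate 1 and −0.21 in knockout replicate 2, and −0.22 when replicate 1 was left out of the fit.

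Canonical histones are replication-linked genes whose mRNAs mostly lack poly(A) tails, and these libraries were made from poly(A)-selected RNA. Of 44 tested, 42 lay below both controls and none was called, with a median log2 fold change of −2.13 (−3.61 and −1.43 in the knockout libraries). Hist1h1c, a linker histone gene, was at 154 and 119 CPM in controls and at 5.28 and 22.9 CPM in knockouts (−3.28, SE 0.62, adjusted p 0.074). Hist1h4h was at 12 and 11.4 CPM and then at 0.279 and 2.85 CPM. Without knockout replicate 1, 28 of the 44 were called lower. Replication and mitosis genes did not lean that way, with 6 of 38 above both controls, and 8 below.

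In total RNA the mitochondrially encoded list was high in knockout replicate 1 only. Its 7 tested members had a median log2 fold change of 3.66 in knockout replicate 1 and −0.38 in replicate 2, and 1 lay above both controls. mt-Co1, a cytochrome oxidase subunit gene, was at 1992 and 2115 CPM in controls and at 20037 and 2340 CPM in knockouts. In the granule fraction both knockout libraries were high, with 6.16% and 8.81% of counts from mitochondrial transcripts against 0.590% and 0.678% in the controls. There, all 7 members lay above both controls, against 40.4% of all tested genes, with a median log2 fold change of 2.68 and none called.

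Developmental regulators lay above the controls more often than genes at large, without called members. Of 29 mesenchyme patterning factors, 19 lay above both controls and 4 below, with a median log2 fold change of 0.82. The median was 0.49 without knockout replicate 1 and 1.22 with the GC trend removed. Prrx1, a limb mesenchyme homeobox gene, was at 46.3 and 64.5 CPM in controls and at 311 and 85.0 CPM in knockouts. Tbx15 was at 16.2 and 23.4 CPM and then at 82.0 and 27.8 CPM, Tbx18 at 7.09 and 10.5 CPM and then at 36.9 and 13.47 CPM, and Shox2 at 2.65 and 3.15 CPM and then at 19.4 and 3.58 CPM. In these 4 genes knockout replicate 2 was near the controls. Of 31 Hox genes, 17 lay above both controls and 3 below, and the median was 0.48, or 0.97 with the GC trend removed. Hoxc13 was at 25.8 and 25.4 CPM and then at 90.7 and 39.7 CPM, and Hoxb7 at 20.8 and 21.8 CPM and then at 69.3 and 38.3 CPM. Of 321 Zfp genes, 161 lay above both controls and 18 below, with a median of 0.69, or 0.33 without knockout replicate 1 and 0.37 with the GC trend removed. Of 16 imprinted growth genes, 6 lay above both controls and 3 below, with a median of −0.05. That median was 0.16 without knockout replicate 1 and 0.09 with the GC trend removed. Plagl1, an imprinted growth regulator, ranged widest, at 17.9 and 28.0 CPM and then at 1505 and 72.8 CPM (5.10, SE 1.18, adjusted p 0.11).

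Growth-factor feedback genes lay above the controls more often than below, without calls. Of 31 immediate-early and MAPK feedback genes, 13 lay above both controls and 5 below, against 24.4% and 24.7% of all tested genes. The median log2 fold change was 0.13, and it was 0.59 without knockout replicate 1 and 0.59 with the GC trend removed. With that trend removed, 6 were called higher and 1 lower. Dusp6, a phosphatase that switches off ERK, was at 21.2 in each control and at 72.2 and 70.4 CPM in knockouts (1.75, SE 0.28, adjusted p 0.050, just above the threshold). Egr1, an early response factor, was at 135 and 144 CPM and then at 494 and 352 CPM (1.60, SE 0.29, adjusted p 0.067). Fosl2, an AP-1 subunit gene, was at 266 and 250 CPM and then at 69.5 and 114 CPM (−1.49, SE 0.30, adjusted p 0.080). The knockout libraries were closest to each other at Dusp6.

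**Figure D4:**
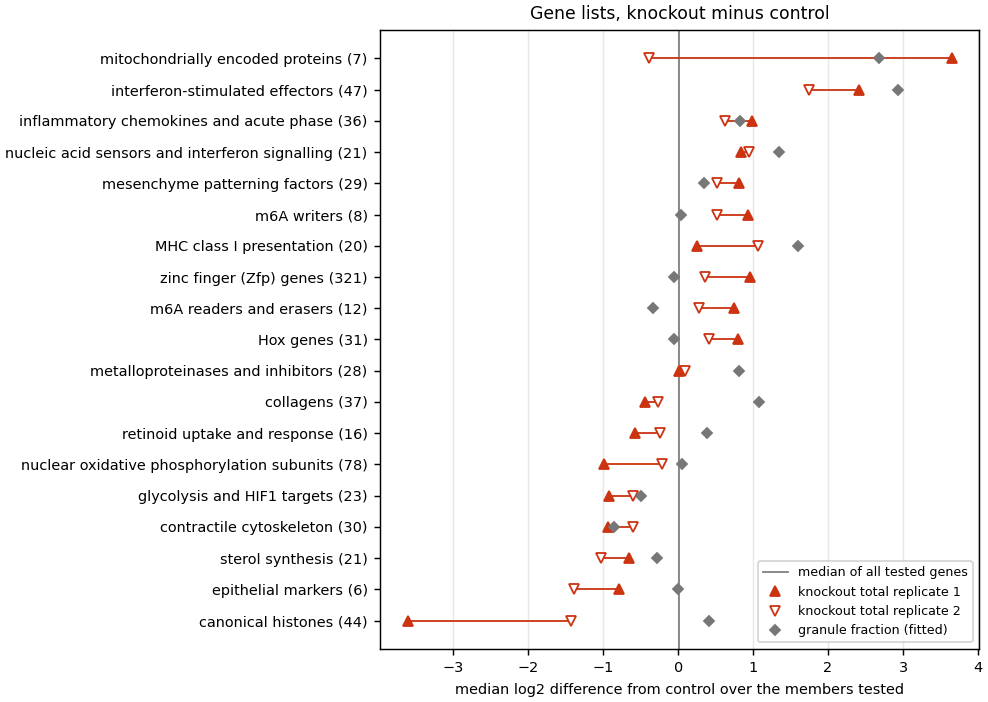
Median log2 difference from control over the tested members of each list, for knockout total replicate 1 (filled triangle) and replicate 2 (open triangle) against the mean of the control libraries, and for the fitted granule comparison (diamond). The median of all tested genes is the grey line at 0.02. The interferon-stimulated effectors lie to the right in both knockout libraries and in the granule fraction, and the 2 triangles of the mitochondrially encoded list lie on opposite sides.

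The granule fraction of arsenite-treated cells gave a view of the same deletion in other libraries. Both comparisons came from the same fit and shared its estimate of each gene's spread, so shared calls are not independent evidence. There, 1098 genes were called higher (5.79%) and 693 lower (3.66%). Of the 52 genes called higher in total RNA, 39 (75%) were also called higher in the granule fraction, which is 3.55% of the genes called higher there. Of the 26 called lower, 14 (53.8%) were also called lower, or 2.02% of those called lower there. Beyond the called genes the falls recurred less. Among the 529 genes at least 2-fold above the controls in total RNA, 401 lay above both controls in granules and 30 below both. Among the 591 at least 2-fold below, 185 lay below both controls in granules and 209 above both. Over all tested genes, 40.4% lay above and 36.6% below both controls there. The interferon-stimulated effectors had 36 of 47 members called higher in the granule fraction and a median log2 fold change of 2.93. Contractile genes had 8 of 30 called lower and a median of −0.85. Collagens had a median of 1.08 and canonical histones one of 0.41 there, against −0.34 and −2.13 in total RNA.

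The difference between the fractions was called for 98 genes (0.517%), 7 of which are named here. Stra6 was at 8.31 and 8.20 CPM in control granules and at 44.2 and 32.9 CPM in knockout granules, the reverse of total RNA (difference 6.07, SE 0.55, adjusted p 0.027). Crabp1 was reversed as well, at 91.6 and 115 CPM and then at 234 and 233 CPM (difference 3.17, adjusted p 0.039). Lcn2 was at 3.96 and 4.6 CPM and then at 6.22 and 5.49 CPM in granules (difference −4.27, adjusted p 0.037), and Ifi27 at 51.7 and 59.8 CPM and then at 64.0 and 60.3 CPM (difference 3.28, adjusted p 0.047). Fraction and arsenite treatment changed together, so their parts cannot be told apart.

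**Figure D5:**
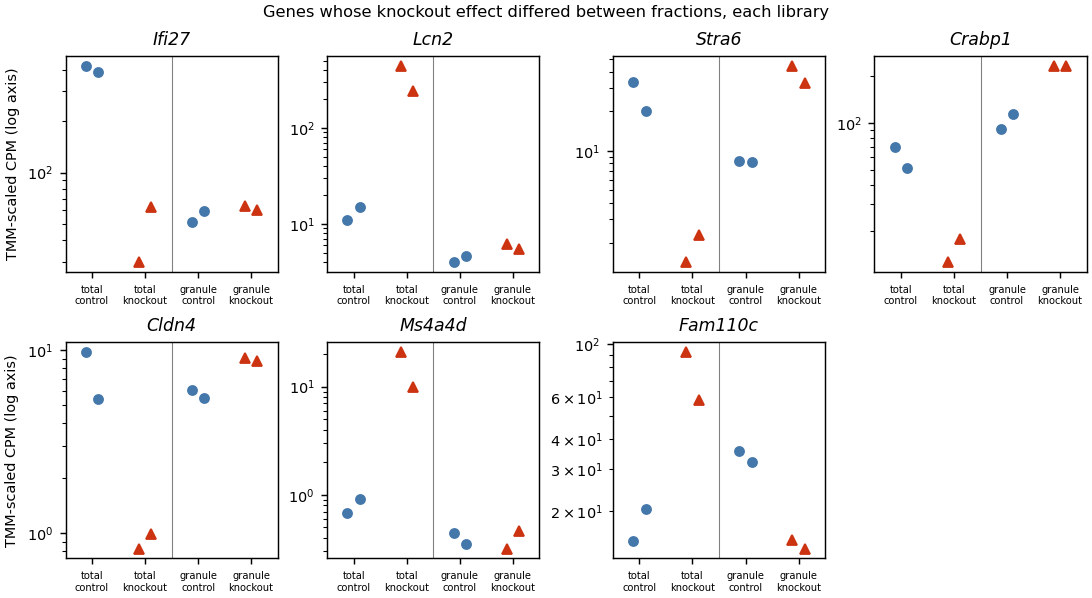
CPM in each library on a log axis, total RNA left and granule fraction right of the grey line, control circles and knockout triangles, for the 7 named genes whose knockout effect differed between the fractions. Stra6 and Crabp1 are lower in the knockout in total RNA and higher in the granule fraction, while Lcn2 and Ms4a4d are higher in the knockout in total RNA and near the controls in the granule fraction.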

How the data were processed

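The authors deposited 1 table of raw counts per Ensembl gene, 1 column per library, not pooled. STAR and DESeq2 and the builds GRCm38 and mm10 are named in the submitters' processing notes; the counting program, strand setting and annotation release are not given in the sources used here, so reads of overlapping or near-identical genes may be mixed. Names and coordinates come from GENCODE M21 (37607 of 39017 identifiers matched), promoters from RefSeq (GRCm38.p6).

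Counts were fitted in R 4.3.3 with edgeR 4.0.16 (robust quasi-likelihood F-test, TMM, its expression filter, 4 group means over all 8 libraries, 4 residual degrees of freedom). P-values were adjusted by Benjamini-Hochberg over 18952 genes. Standard errors derive from the F statistic. The scripts were tested on simulated data. With 2 libraries against 2, a permutation test could not go below 0.333. Trends with GC content and length were removed by lowess (span 0.3).

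Named genes are Mettl3 and the m6A machinery, the called protein-coding genes without overlap averaging 5 CPM or more that had the 12 highest or 12 lowest fold changes, and up to 4 members of each list with the largest change on the same terms. Others are marked as chosen later or are called members, or members with a promoter motif. The comparison, the 42 gene lists and the tests were chosen with earlier results of these data known, so no list is independent evidence of its direction. Alternatives used DESeq2 1.42.0, limma 3.58.1 (voom), other scalings and filters, a replicate block, thinning and the removal of each library. Overlap of exons was computed with bedtools 2.31.1.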

Additional observations from a re-analysis of the deposited data

Results flagged for a closer look

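For 7 named genes the knockout effect differed between the granule fraction and total RNA, by the interaction term of the edgeR fit at an adjusted p under 0.05. The values below are the granule effect minus the total effect on the log2 scale. The difference was 6.07 for Stra6, 3.70 for Cldn4, 3.28 for Ifi27 and 3.17 for Crabp1, all of which fell in total RNA. It was -4.31 for Ms4a4d, -4.27 for Lcn2 and -3.32 for Fam110c, all of which rose in total RNA. Stra6, Crabp1 and Fam110c were called in opposite directions in the 2 fractions. Fam110c, chosen after its values were seen, was at 15 and 20.4 CPM in control total RNA and at 92.7 and 58.6 CPM in knockout total RNA, and at 35.8 and 32.0 CPM and then 15.1 and 13.9 CPM in granules. Cldn4 was at 6.09 and 5.47 CPM in control granules and at 9.07 and 8.78 CPM in knockout granules. Ms4a4d was at 0.447 and 0.352 CPM in control granules and at 0.319 and 0.458 CPM in knockout granules. Fraction and arsenite treatment changed together, so their parts cannot be told apart.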

How the results depend on the processing

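The number of genes called higher and lower in knockout total RNA, 52 and 26 by edgeR, was the least stable result. It was 22 and 15 with library size alone, 1843 and 663 by the DESeq2 Wald test, 35 and 4 by voom with quality weights, and 2483 and 924 with no filter beyond 1 count. Removing the length trend gave 86 and 40. Removing the GC trend gave 473 and 236, and 205 and 107 with the replicate block too. No gene was called in a fit of only the 4 total libraries (1766 at an unadjusted p under 0.05, 2452 with the GC trend removed). Leaving out 1 library gave from 0 to 5429 genes higher and from 0 to 4198 lower, with 0 of either on leaving out a control or a granule library (1436 to 3951 at an unadjusted p under 0.05). The GC trend removed without knockout replicate 1 gave 1616 and 989, and without knockout replicate 2 it gave 4713 and 3630. The cause was not tested. Genes above and below both controls without overlap, 4624 and 4682, became 2785 and 2491 of the fewer genes averaging 5 CPM or more.

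The labels give the groups shared replicate numbers but no shared source, and replicate differences of the total groups correlated at -0.60. With the replicate block 0 genes were called higher and 0 lower (3474 at an unadjusted p under 0.05). Crossing the numbers, an alternative chosen after seeing the data, gave 62 and 32.

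The median of the interferon-stimulated effectors, 2.25, stayed above 0 in every alternative and moved to 1.70 without knockout replicate 1 (also with the GC trend removed) and to 1.77 for the 4 total libraries with the GC trend removed. Leaving out 1 library gave 1.70 to 2.51. That of the inflammatory list, 1.13, moved to 0.59 without knockout replicate 1 and to 0.74 with the GC trend removed. It was 0.63 when GC trend removal was joined with the block, 0.66 when joined with a fit of only the 4 total libraries, and 0.59 and 0.69 when joined with leaving out knockout replicate 1 or 2. Leaving out 1 library gave 0.59 to 1.28. That of the contractile list, -0.80, moved to -0.31 with the GC trend removed and without knockout replicate 2, and ranged from -1.03 to -0.55 on leaving out 1 library. That of the metalloproteinases, 0.02, changed sign to -0.086 with upper-quartile factors, -0.10 with library size alone, -0.011 by voom, -0.058 above 5 CPM and -0.0013 with the crossed block. It moved to 0.15 with the GC trend removed, alone, with the block or without knockout replicate 1, and to 0.25 with the GC trend removed and knockout replicate 2 left out. Leaving out 1 library alone gave 0.02 to 0.11. The collagen median turned only in fits with the GC trend removed, to 0.13 alone, 0.12 with the block, 0.014 in the 4 total libraries and 0.19 without knockout replicate 2. With the trend removed and knockout replicate 1 left out it did not turn, at -0.11. It was -0.34 in the 4 total libraries and -0.36 without knockout replicate 2 when the trend was kept. The median of the mitochondrially encoded list turned to -0.38 without knockout replicate 1 (3.76 without knockout replicate 2) and -0.60 with the GC trend removed as well, and that of the m6A writers to -0.033 with the GC trend removed and without knockout replicate 2.

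Of the named genes, 46 were called in total RNA, and none of them changed sign. Their nearest knockout and control values were at least 2-fold apart, so a change of sign was unlikely from the start. Across the alternatives, 722 of their 1194 results stayed the same and 472 were weaker. Mettl14 took values of -0.080 (upper-quartile), -0.11 (library size), -0.0048 (block), -0.65 (GC trend removed, with or without the block), -0.33 (length trend removed), -0.0020 (thinned), -0.20 without control total replicate 1, -0.29 and 0.38 without knockout total replicate 1 or 2, and -0.71, -0.46 and -0.79 in the added fits with the GC trend removed. With the GC trend removed and 1 knockout library left out, Wtap was at -0.061, Ifnb1 at -0.53 and mt-Co1 at -0.029. At most 0.0446 CPM corresponded to 3 counts in any library, under every level given here.

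The limit of a 2-fold gap between nearest values, and the fits that join GC trend removal with fewer libraries, were chosen after seeing the data. Overlap was not recounted without a total library, since 1 value a group makes the count another quantity.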
